A study of Mus musculus with 6 samples.

Results

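The 10 genes described here are Tcf7, Lef1, Axin2, Bach2, Satb1, Tob1, Btg1, Btg2, Id3 and Id2, chosen by name as regulators of naive T cell identity and quiescence, out of 47729 genes in the count table. They and the lists below were chosen with earlier results of these data known. Their counts beside the shares of all genes are therefore description only. All 10 were found under 1 identifier each, and all 10 passed the filter on low counts that left 15780 genes to test. Their RNA was counted in 6 bulk libraries of splenic mouse CD4 T cells, 2 in each of 3 groups. OFF cells were of the RBPJind genotype with the surface phenotype CD3+CD4+CD25-CD45RBint, and the series names them immature naive T cells (INT). That name is the series' own, and whether the cells were naive was not tested here. They came from mice that drank doxycycline (Dox) for 3 weeks and then water without it for 1 week while the T cells matured in the periphery. ON cells were INT cells of the same genotype and gate from mice kept on Dox for 4 weeks. WT cells were mature T cells (MNT) of wild type animals with the phenotype CD3+CD4+CD25-CD45RBhi. Every library carries the treatment label Dox, and no duration is given for WT. RBPJ is the DNA-binding partner of activated Notch receptors. In the series' terms ON cells were Notch responsive during maturation and OFF cells unresponsive, and the promoter or cell type that drives the inducible allele is not given in the sources used. OFF against ON changes Dox along with Notch response, and each comparison with WT changes genotype, gate and maturity together, which cannot be told apart.

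Naive T cells are kept small, undivided and responsive by transcription factors that hold effector genes down. TCF-1, encoded by Tcf7, and its relative LEF1 bind DNA through an HMG box, work with beta-catenin or with Groucho-type corepressors, and set up T cell identity from the thymus onward. BACH2 represses effector genes, SATB1 organises chromatin in thymocytes and T cells, and the TOB and BTG proteins bring the CCR4-NOT deadenylase to messenger RNAs and hold back cell division. ID2 and ID3 lack a DNA-binding region and inactivate E proteins by pairing with them, with ID3 typical of naive and long-lived cells and ID2 of effector cells.

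Levels are CPM, the standard depth-normalised read count of a gene, computed here after TMM scaling of the libraries. Counts assigned to genes ranged from 17025551 to 19319183 per library, and single-gene counts of the 10 genes from 153 for Id3 to 32589 for Tcf7. A gene is called where edgeR's quasi-likelihood test over all 15780 genes gave a Benjamini-Hochberg adjusted p under 0.05, and log2 fold changes are given with their standard error (SE) or 95% interval. No label says that both libraries of a group are from different mice, so the p-values cover the spread between these samples, which may be technical, and no label names a batch. Rbpj itself stood at 29.8 and 31.7 CPM in OFF, 98.2 and 79.6 CPM in ON, and 36.1 and 35.3 CPM in WT. Both ON libraries thus stood above all others, while OFF against WT was not called (-0.22 ± 0.14, adjusted p = 0.422). The T cell marker Cd3e was present in every library at 307 to 427 CPM. The CD8 T cell marker Cd8a stood at 3.06 and 4.09 CPM in OFF, 5.72 and 5.85 in ON, and 0.42 and 1.28 in WT. Cd8b1, the other CD8 chain gene, stood at 11.1 and 13.9 CPM in OFF, 12.4 and 17.9 in ON, and 14.0 and 12.6 in WT, so that its groups overlapped. Foxp3, which defines regulatory T cells, stood at 36.6 and 78.7 CPM in OFF, 38.03 and 30.8 in ON, and 2.45 and 2.67 in WT, although CD25+ cells had been gated out.

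Bach2, Satb1 and Tob1 were lower and Id2 was higher in ON than in WT, Id3 was higher in OFF than in WT, and none of the 10 genes was called between OFF and ON. For ON against WT 4 of the 10 were called (1 higher and 3 lower), against 14.8% of all tested genes (9.68% higher and 5.16% lower). For OFF against WT 1 of the 10 was called, against 6.83% (4.70% higher and 2.14% lower). For OFF against ON edgeR called 0 of the 10, against 1.03% of all tested genes. DESeq2 called 1 (Bach2) and limma-voom 0. Over all genes edgeR made 162 calls there, DESeq2 497 and limma-voom 99. An unadjusted p under 0.05 was reached by 5 of the 10 for OFF against ON (19.1% of all genes), 6 for ON against WT (30.5%) and 4 for OFF against WT (22.1%).

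The libraries of OFF and ON did not overlap for 6 of the 10 genes (46.7% of all tested genes), with OFF higher for all 6 (23.4%), namely Tcf7, Bach2, Satb1, Tob1, Btg1 and Id3, and lower for 0 (23.3%). The libraries of ON and WT did not overlap for 7 genes (59.9%), 2 of them higher in ON (29.8%) and 5 lower (30.0%). Those of OFF and WT did not overlap for 7 genes (55.7%), 4 higher in OFF (29.8%) and 3 lower (25.8%). The median log2 fold change of the 10 genes was 0.34 for OFF against ON, -0.28 for ON against WT and -0.088 for OFF against WT, with 0.0011, -0.020 and 0.011 over all tested genes. These comparisons share libraries, so their values are set side by side and are not separate evidence.

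**Figure D1:**
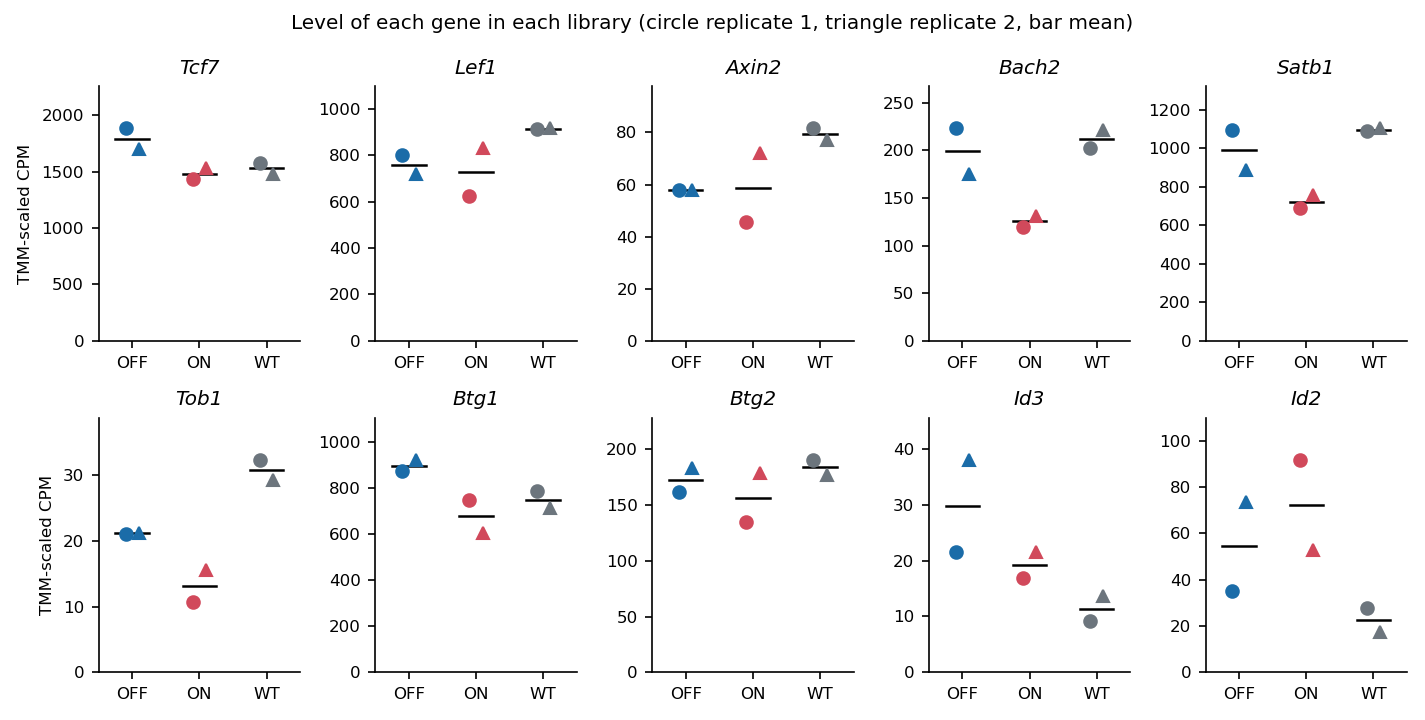
TMM-scaled CPM of each of the 10 genes (y axis, from 0) in the OFF, ON and WT libraries (x axis), where circles are replicate 1, triangles replicate 2 and bars the group means. Bach2, Satb1 and Tob1 are lowest in both ON libraries, Id2 is spread widely in OFF and ON, and Axin2 and Lef1 are highest in both WT libraries.

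Tcf7 (ENSMUSG00000000782; GRCm38 chromosome 11, 52252371 to 52283014, minus strand) had the highest level of the 10 genes. It stood at 1883 and 1703 CPM in OFF, 1431 and 1535 CPM in ON, and 1580.2 and 1482 CPM in WT. Both OFF libraries were above every other library, while the ON and WT libraries overlapped. The log2 fold change was 0.27 ± 0.12 between OFF and ON (SE; adjusted p = 0.263), 0.23 ± 0.12 between OFF and WT (adjusted p = 0.320) and -0.046 ± 0.12 for ON against WT (adjusted p = 0.837). The 95% interval of the last ran from -0.32 to 0.23. Without ON 1 or WT 1 the sign of that small difference turned, to 0.025 and 0.0046.

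Lef1 (ENSMUSG00000027985; chromosome 3, 131110471 to 131224356, plus strand) stood at 801 and 717 CPM in OFF, 625 and 829.6 CPM in ON, and 914 CPM in both WT libraries. Both WT libraries were above all 4 RBPJind libraries, and ON libraries bracketed the OFF libraries. None of the differences was called, with log2 fold changes of -0.33 ± 0.15 between ON and WT (adjusted p = 0.168) and -0.27 ± 0.15 between OFF and WT (adjusted p = 0.337). Without ON 2, the higher of the ON libraries, Lef1 was called lower in ON than in WT (-0.52, adjusted p = 0.0215), and without ON 1 the value was -0.12 (adjusted p = 0.565). The value for OFF against ON was 0.061 ± 0.15, and it turned to -0.0089 without OFF 1 and to -0.12 without ON 1. The ratio of Tcf7 to Lef1 in 1 library was 2.35 and 2.37 in OFF, 2.29 and 1.85 in ON, and 1.73 and 1.62 in WT. These 3 groups did not overlap, and each pairwise exact permutation test (two-sided, 2 against 2 libraries) gave p = 0.333, the smallest that this design allows.

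Axin2 (ENSMUSG00000000142; chromosome 11, 108920349 to 108950783, plus strand), a scaffold of the beta-catenin destruction complex and a widely used direct target of TCF and LEF factors, stood at 58.0 and 57.9 CPM in OFF, 45.7 and 72.0 CPM in ON, and 81.5 and 77.2 CPM in WT. Both WT libraries were the highest, as for Lef1. The log2 fold changes of -0.45 ± 0.19 between OFF and WT (adjusted p = 0.189) and -0.43 ± 0.19 between ON and WT (adjusted p = 0.151) were not called. The call against WT depended on the ON libraries. Without ON 2 the ON value became -0.77 (adjusted p = 0.00477) and without ON 1 it became -0.12 (adjusted p = 0.567). Without ON 1 or ON 2 the OFF value was called at adjusted p = 0.0327 and 0.0317. With only OFF and WT fitted it was called as well (-0.50, adjusted p = 0.0198). The estimate for OFF against ON was -0.023 ± 0.19 with a 95% interval from -0.44 to 0.40, and it was 0.33 without ON 2 and -0.31 without ON 1.

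Bach2 (ENSMUSG00000040270; chromosome 4, 32238804 to 32586108, plus strand) stood at 223 and 176 CPM in OFF, 119.8 and 131 CPM in ON, and 203 and 221 CPM in WT. Both ON libraries were below all 4 others, and OFF and WT overlapped. Bach2 was 1.69-fold lower in ON than in WT (log2 fold change -0.75 ± 0.14, adjusted p = 0.00854). It lost that call without WT 1 (adjusted p = 0.0536) or WT 2 (adjusted p = 0.114), with values of -0.81 and -0.67. Against ON, OFF stood at 0.67 ± 0.14 (95% interval 0.35 to 0.98; adjusted p = 0.0595), just outside the threshold, and was called without OFF 2 (0.81, adjusted p = 0.0359) and by DESeq2 (0.65, adjusted p = 0.00360). Without OFF 1 it was 0.49 (adjusted p = 0.260). Against WT, OFF stood at -0.088 ± 0.14, with a 95% interval from -0.40 to 0.22, which turned to 0.069 without OFF 2 and to 0.0070 without WT 2. Without WT 1 or WT 2 most calls against WT over all tested genes were lost as well. A call lost in those fits, here and for every gene below, is thus not particular to that gene. In bulk RNA, fewer cells that express a gene and less of its RNA per cell cannot be told apart, here and for every gene below.

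Satb1 (ENSMUSG00000023927; chromosome 17, 51736187 to 51833290, minus strand) stood at 1097 and 886 CPM in OFF, 687 and 759 CPM in ON, and 1088 and 1103 CPM in WT. Both ON libraries were again the lowest. Satb1 was 1.51-fold lower in ON than in WT (log2 fold change -0.60 ± 0.14, adjusted p = 0.0193). That call was lost without ON 1 (-0.51, adjusted p = 0.0542), WT 1 (-0.60, adjusted p = 0.131) or WT 2 (-0.57, adjusted p = 0.161). OFF stood at 0.45 ± 0.14 against ON (adjusted p = 0.129) and at -0.14 ± 0.14 against WT, with a 95% interval from -0.45 to 0.16.

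Tob1 (ENSMUSG00000037573; chromosome 11, 94211454 to 94215495, plus strand) had the largest difference among these 3. It stood at 21.1 and 21.3 CPM in OFF, 10.7 and 15.6 CPM in ON, and 32.3 and 29.2 CPM in WT, so that no 2 groups overlapped. Tob1 was 2.34-fold lower in ON than in WT (log2 fold change -1.23 ± 0.19, adjusted p = 0.00354). This was the 1 call of a member that was kept with each library left out in turn, at values from -1.50 to -0.96 and adjusted p up to 0.0399. OFF stood between, at 0.69 ± 0.19 against ON (adjusted p = 0.112) and -0.54 ± 0.18 against WT (adjusted p = 0.115). The first of these was called without ON 2 (0.98, adjusted p = 0.0351) and stood at 0.45 without ON 1 (adjusted p = 0.166). The second was called without ON 1 (-0.51, adjusted p = 0.0393) or ON 2 (-0.52, adjusted p = 0.0388) and with only OFF and WT fitted (-0.58, adjusted p = 0.0277).

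**Figure D2:**
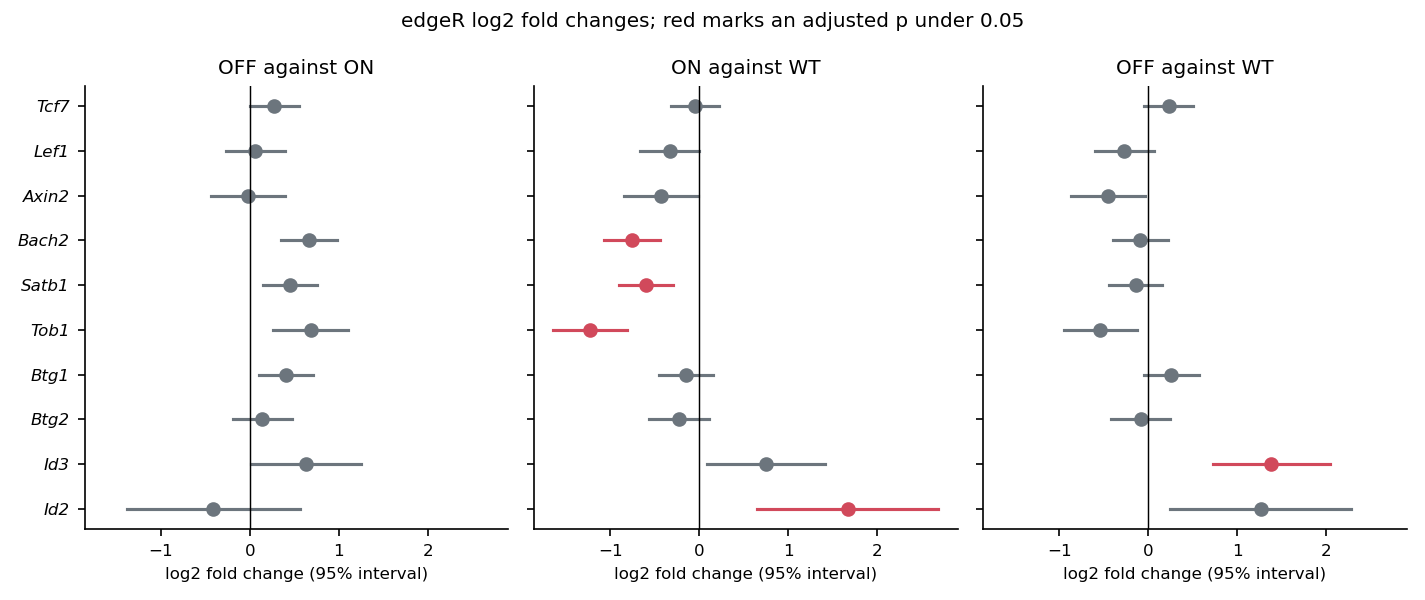
edgeR log2 fold changes (points) with 95% intervals (lines) of the 10 genes in each comparison, first group over second, with red for an adjusted p under 0.05. Bach2 (-0.75), Satb1 (-0.60) and Tob1 (-1.23) lie left of 0 and Id2 (1.67) right of it for ON against WT, Id3 (1.38) is the only red point for OFF against WT, and OFF against ON has none.

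The genes whose levels over the 6 libraries lay nearest to those of Bach2, by the Euclidean distance of centred log2 CPM among 8868 protein-coding genes with a mean of at least 5 CPM, were Wars2, Tsc22d2 and Zfp369 (distances 0.123 to 0.144). Nearest to Satb1 were Zfp592, Pag1 and Zfp664 (0.0870 to 0.0968), nearest to Tcf7 were Rpgrip1, Mpc1 and Pigq (0.103 to 0.119), and nearest to Lef1 were Brat1, Prkag2 and Galnt10 (0.0579 to 0.0893).

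The start-site windows of the 3 genes lower in ON and of both ID genes are shown because they are the 5 genes called in any comparison. Each runs from 250 bases before to 50 bases after a RefSeq start site on GRCm38.p6, 5′ to 3′ on the gene's strand, at the start nearest to the GENCODE start of the gene. Capitals mark matches, on either strand, to the letters searched: TGGGAA (RBPJ core), CTTTGA (TCF and LEF), GTAAACA (FOXO), TGACG (cAMP response element) and TATAAA. The RefSeq start of Bach2 lies 178631 bases downstream of the GENCODE start of the gene and thus inside it. Those of Id3 and Id2 lie 325 and 1048 bases downstream and are inside their genes too.
Bach2, chr4:32417185-32417484, plus strand: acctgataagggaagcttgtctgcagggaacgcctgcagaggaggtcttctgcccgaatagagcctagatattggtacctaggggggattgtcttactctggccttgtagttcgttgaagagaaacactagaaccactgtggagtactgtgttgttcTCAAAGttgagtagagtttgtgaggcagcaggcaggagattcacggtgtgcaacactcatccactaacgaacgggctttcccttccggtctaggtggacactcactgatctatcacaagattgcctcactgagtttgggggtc
Satb1, chr17:51833241-51833540, minus strand: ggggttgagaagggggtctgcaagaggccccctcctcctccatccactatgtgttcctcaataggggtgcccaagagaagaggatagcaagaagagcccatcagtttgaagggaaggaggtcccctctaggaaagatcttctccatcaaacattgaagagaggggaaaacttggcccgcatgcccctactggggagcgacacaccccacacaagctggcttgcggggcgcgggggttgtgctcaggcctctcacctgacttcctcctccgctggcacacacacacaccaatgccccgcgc
Tob1, chr11:94211204-94211503, plus strand: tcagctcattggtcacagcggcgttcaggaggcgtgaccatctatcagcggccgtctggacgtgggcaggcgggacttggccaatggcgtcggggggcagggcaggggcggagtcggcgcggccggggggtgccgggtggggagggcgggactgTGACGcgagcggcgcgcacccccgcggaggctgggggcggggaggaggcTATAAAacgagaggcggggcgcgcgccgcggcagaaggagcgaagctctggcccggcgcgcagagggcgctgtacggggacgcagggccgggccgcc
Id3, chr4:136143572-136143871, plus strand: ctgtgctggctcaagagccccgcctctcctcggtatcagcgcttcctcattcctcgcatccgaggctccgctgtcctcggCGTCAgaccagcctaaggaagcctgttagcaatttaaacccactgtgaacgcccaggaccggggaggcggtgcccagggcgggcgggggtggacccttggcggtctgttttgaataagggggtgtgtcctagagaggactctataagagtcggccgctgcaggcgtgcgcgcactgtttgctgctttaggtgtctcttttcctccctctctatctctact
Id2, chr12:25096043-25096342, minus strand: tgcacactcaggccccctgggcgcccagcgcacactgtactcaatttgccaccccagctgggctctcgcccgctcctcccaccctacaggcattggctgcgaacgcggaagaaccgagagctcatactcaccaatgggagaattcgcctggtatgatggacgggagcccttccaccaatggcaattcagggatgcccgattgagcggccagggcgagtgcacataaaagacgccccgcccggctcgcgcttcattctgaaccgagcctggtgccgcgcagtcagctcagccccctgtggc

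Of the 5 printed windows, that of Bach2 holds the TCF and LEF letters (as their reverse complement), that of Tob1 holds TGACG and TATAAA, that of Id3 holds the reverse complement of TGACG, and those of Satb1 and Id2 hold none of the letters searched. Over the nearest windows of all 10 genes, the RBPJ core was found in 2 (Lef1 and Btg2), against 25.6% of 32851 mouse windows of the same length. The TCF and LEF letters were found in 1 (16.0% of all windows), FOXO in 1, Btg1 (3.65%), TGACG in 4, namely Tob1, Btg1, Btg2 and Id3 (20.8%), and TATAAA in 2, Tob1 and Btg1 (13.6%). In Btg2 TGACG stands on both strands at overlapping positions. These matches are descriptions of the windows only.

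Btg1 and Btg2 encode 2 antiproliferative relatives of TOB1 that are abundant in resting lymphocytes. Btg1 (ENSMUSG00000036478; chromosome 10, 96617006 to 96622809, plus strand) stood at 872 and 921 CPM in OFF, 749 and 605 CPM in ON, and 786 and 711 CPM in WT. Both OFF libraries were above all others. It was not called between OFF and ON (0.41 ± 0.14, 95% interval 0.10 to 0.71; adjusted p = 0.156), but was without ON 1 (0.57, adjusted p = 0.0425), while without ON 2 it stood at 0.25 (adjusted p = 0.355). It was 0.26 ± 0.14 for OFF against WT (adjusted p = 0.305) and -0.15 ± 0.14 for ON against WT (adjusted p = 0.511), turning to 0.026 without ON 2. Btg2 (ENSMUSG00000020423; chromosome 1, 134075170 to 134079120, minus strand), which is also an early response gene, stood at 162 and 183 CPM in OFF, 135 and 179 CPM in ON, and 190.2 and 177 CPM in WT. The 3 groups overlapped, and the 95% intervals ran from -0.19 to 0.48 between OFF and ON, from -0.56 to 0.11 between ON and WT and from -0.42 to 0.25 between OFF and WT. The signs of Btg2 turned without ON 1 (OFF against ON, -0.042) and without OFF 1 (OFF against WT, 0.030). Beside it, the summed level of 11 immediate early genes was 1132 and 1233 CPM in OFF, 944 and 818 in ON, and 779 and 859 in WT. OFF exceeded ON past the test's threshold for 2 of the 11, Fos and Fosb, where 0.602% of all tested genes were called higher. The call of Fos was lost without OFF 1, OFF 2, ON 2, WT 1 or WT 2 (adjusted p up to 0.0833). Its part in the Btg values was not tested. Btg1 exceeded Btg2 in CPM by 5.39 and 5.02 times in OFF, 5.56 and 3.39 times in ON, and 4.13 and 4.02 times in WT. The difference of this ratio between OFF and WT gave p = 0.333 in the exact permutation test, the smallest possible, and p = 1 in both other comparisons.

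Id3 (ENSMUSG00000007872; chromosome 4, 136143497 to 136145755, plus strand) stood at 21.55 and 37.98 CPM in OFF, 17.0 and 21.46 CPM in ON, and 9.15 and 13.6 CPM in WT. The groups did not overlap, although OFF 1 and ON 2 were nearly level. Id3 was 2.61-fold higher in OFF than in WT (log2 fold change 1.38 ± 0.29, adjusted p = 0.0268). That call was lost without OFF 2 (0.91, adjusted p = 0.113), WT 1 (1.14, adjusted p = 0.193) or WT 2 (1.73, adjusted p = 0.0580) and with limma-voom (1.35, adjusted p = 0.0520). ON stood at 0.75 ± 0.29 against WT (adjusted p = 0.119), called without OFF 1 (0.77, adjusted p = 0.0360) or OFF 2 (0.77, adjusted p = 0.0328), libraries that are in neither group, and ranging from 0.50 without WT 1 to 1.09 without WT 2. OFF stood at 0.63 ± 0.27 against ON (adjusted p = 0.257), a value of 0.15 without OFF 2 (adjusted p = 0.810) and 0.99 without OFF 1 (adjusted p = 0.128). Nearest to Id3 in profile were Ndrg1, the lysozyme gene Lyz2 and Cd200 (distances 0.336 to 0.575).

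Id2 (ENSMUSG00000020644; chromosome 12, 25093799 to 25097140, minus strand) varied most between libraries of 1 group. It stood at 35.1 and 73.7 CPM in OFF, 91.7 and 52.7 CPM in ON, and 27.6 and 17.6 CPM in WT. All 4 RBPJind libraries were above both WT libraries, and OFF and ON overlapped. Id2 was 3.19-fold higher in ON than in WT (log2 fold change 1.67 ± 0.43, adjusted p = 0.0450), close to the threshold. The call was lost without ON 1 (1.24, adjusted p = 0.165), ON 2 (2.05, adjusted p = 0.102), WT 1 (2.04, adjusted p = 0.188) or WT 2 (1.40, adjusted p = 0.280), and with RLE scaling (adjusted p = 0.0621). OFF stood at 1.26 ± 0.43 against WT (adjusted p = 0.145) and at -0.41 ± 0.41 against ON, with a 95% interval from -1.38 to 0.56. The value against WT was 0.63 without OFF 2 (adjusted p = 0.614) and 1.73 without OFF 1 (adjusted p = 0.0877). That against ON turned to 0.042 without OFF 1 and to 0.050 without ON 1, and was -1.06 without OFF 2. The ratio of Id3 to Id2 was 0.614 and 0.515 in OFF, 0.185 and 0.407 in ON, and 0.331 and 0.772 in WT. OFF exceeded ON in both libraries (exact permutation p = 0.333, the smallest possible), while WT spanned both OFF libraries and overlapped ON.

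Levels of marker lists of other cells and states are given here beside the ID genes. Of all tested genes 4.70% were called higher and 2.14% lower for OFF against WT. For ON against WT these shares were 9.68% and 5.16%. The counts called in these lists, here and in the next paragraph, stand beside those shares. The summed level of 10 proliferation genes was 713 and 1094 CPM in OFF, 1409 and 723 in ON, and 262 and 244 in WT, with 6 of 10 called higher in OFF and 9 of 10 in ON than in WT. That of 10 effector and memory genes was 432 and 844 in OFF, 868 and 689 in ON, and 168 and 112 in WT, with 9 of 10 higher in OFF and 7 of 10 in ON. From highest to lowest, ON 1, OFF 2, ON 2, OFF 1, WT 1 and WT 2 stood in the same order for Id2 and both of these sums, a likeness seen after the values were. Regulatory T cell genes (6 listed) summed to 256 and 455 in OFF, 296 and 212 in ON, and 55.9 and 46.7 in WT, with 5 of 6 higher in OFF and 6 of 6 in ON.

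B cell genes (14 listed) summed to 226 and 283 in OFF, 189 and 160.2 in ON, and 209 and 193 in WT, with 11 of 13 tested genes called higher for OFF against WT, and for ON against WT 4 were higher and 1 lower. Most of each sum was Ighm, the immunoglobulin heavy chain gene, at 179 and 206 CPM in OFF, 139.99 and 125 in ON, and 194 and 177 in WT. The other 13 genes summed to 47.3 and 76.7 in OFF, 48.9 and 35.2 in ON, and 15.3 and 15.2 in WT, with all 4 RBPJind libraries above both WT libraries. Myeloid and dendritic genes (10 listed) summed to 71.8 and 79.8 in OFF, 62.2 and 70.8 in ON, and 23.4 and 20.8 in WT. Of 9 tested, 5 were called higher in OFF and 6 in ON than in WT, and 0 between OFF and ON. Their first gene Itgax stood at 9.19 and 9.61 in OFF, 18.8 and 16.2 in ON, and 2.99 and 2.03 in WT. Itgax was thus higher in ON than in OFF, unlike the sum. CD8 T and NK cell genes (9 listed) summed to 40.4 and 56.4 in OFF, 79.4 and 53.4 in ON, and 43.9 and 33.5 in WT. Of 8 tested, 1 was called higher in OFF and 2 in ON than in WT. Erythroid genes (7 listed) summed to at most 2.22 CPM, and Hba-a1 had 0 counts in 4 libraries. CD4 T cell genes (7 listed) summed to 2744 and 2932 in OFF, 2854 and 3574 in ON, and 2528 and 2403 in WT, with 1 of 7 called higher in OFF and 0 in ON than in WT. The part of other cells or of dividing cells in the levels of Id2, Id3, Bach2 or any other of the 10 genes was not tested.

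**Figure D3:**
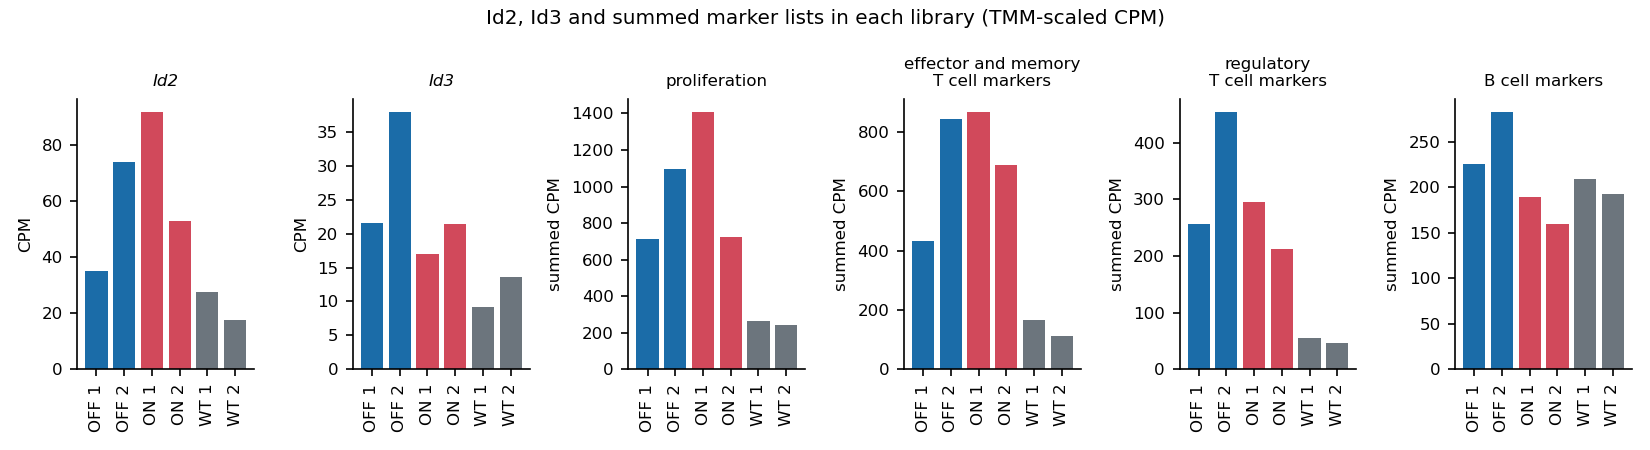
CPM of Id2 and Id3 and summed CPM of the proliferation, effector and memory, regulatory T cell and B cell lists (y axes, from 0) in each of the 6 libraries (x axis), with OFF blue, ON red and WT grey. Id2 and the proliferation and effector lists share 1 order of libraries, from ON 1 (91.7 CPM for Id2) down to WT 2 (17.6 CPM), and most of the B cell sum in every library is Ighm.

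Per kilobase of merged exons, the mean level over the 6 libraries fell in the order Tcf7 (610.4 ± 63.2 CPM per kb, SD over 6 libraries), Btg1 (147 ± 21.6), Lef1 (91.1 ± 12.9), Btg2 (62.3 ± 7.34), Satb1 (49.2 ± 9.76), Id2 (20.4 ± 11.7), Bach2 (18.0 ± 4.51), Axin2 (11.9 ± 2.49), Id3 (11.2 ± 5.56) and Tob1 (9.48 ± 3.54). The library ranges of Tcf7, Btg1, Lef1 and Btg2 did not overlap from one to the next, and every later pair of neighbours in the order did. The places of Btg1, Lef1, Btg2, Satb1, Axin2 and Id3 depended on the length used. With the longest transcript in place of merged exons Lef1 (219 CPM per kb) came before Btg1 (155) and Satb1 (150.04) before Btg2 (62.3). By either length Tcf7 was the highest and Tob1 the lowest.

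**Figure D4:**
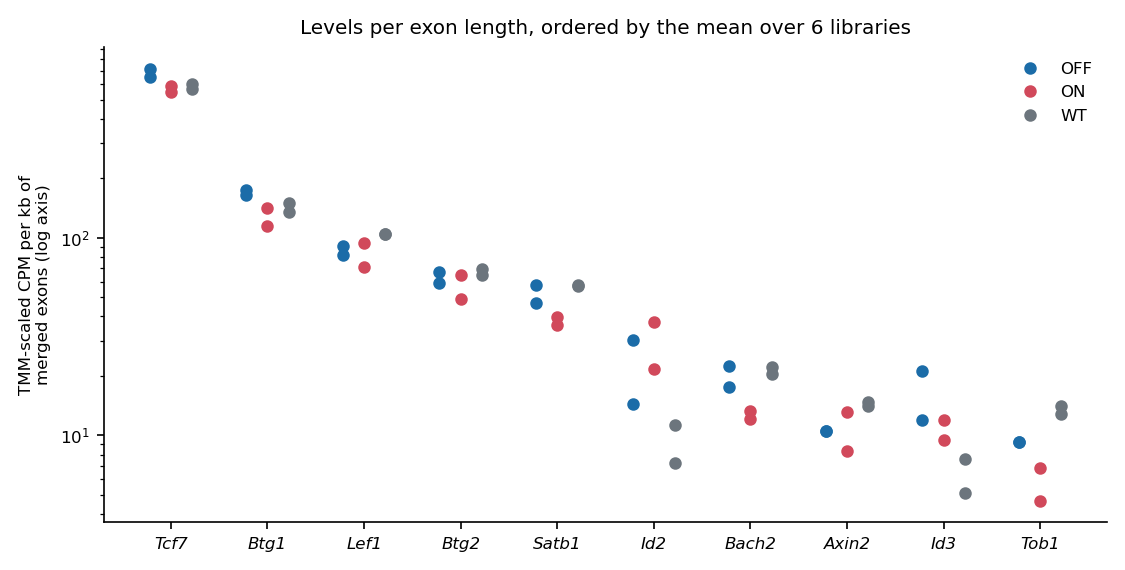
TMM-scaled CPM per kb of merged exons (log y axis) of each gene in each library, with OFF blue, ON red and WT grey and genes ordered by their mean over the 6 libraries. The order runs from Tcf7 (610.4 CPM per kb) to Tob1 (9.48), and the ranges of Tcf7, Btg1, Lef1 and Btg2 do not overlap from one to the next.

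Around TCF-1 and LEF1, the list of Wnt signalling genes had 26 of 36 members tested. For ON against WT 2 of the 26 were called higher and 5 lower (median log2 fold change -0.20), beside 9.68% and 5.16% of all tested genes, the shares against which the counts of the later lists for ON against WT stand too. For OFF against WT the shares for this and the later lists are 4.70% higher and 2.14% lower. For OFF against ON they are 0.602% higher and 0.425% lower. Tle4, a Groucho-type corepressor that TCF factors recruit, stood at 89.7 and 80.2 CPM in OFF, 57.4 and 52.1 CPM in ON, and 99.6 and 107 CPM in WT. It was lower in ON than in WT (-0.91 ± 0.12, adjusted p = 0.00205), a call kept with each library left out. It was higher in OFF than in ON (0.63 ± 0.12, adjusted p = 0.0489), the 1 call of the list there, where 0.602% of all genes were called higher, and that call was lost in 5 of 6 fits, without OFF 1, OFF 2, ON 2, WT 1 or WT 2 (adjusted p up to 0.210). Its paralog Tle3, the most abundant of the list, was higher in ON than in WT, at 347 and 354 CPM in OFF, 343 and 443 in ON, and 244 and 257 in WT (ON against WT 0.65 ± 0.14, adjusted p = 0.0152, lost without WT 1 or WT 2, up to 0.141). Znrf3, a membrane ubiquitin ligase that removes Wnt receptors and is itself a Wnt target, was lower in ON than in WT (-1.003 ± 0.16, adjusted p = 0.00380, lost without WT 2 at 0.0636). Ctnnbip1, an inhibitor of beta-catenin, was higher, at 2.42 CPM in ON and 0.768 CPM in WT (adjusted p = 0.0221, lost without ON 1, WT 1 or WT 2, up to 0.183). For OFF against WT edgeR called 0 of 26, with 5 at an unadjusted p under 0.05, DESeq2 calling 1 and limma-voom 0. Over all genes edgeR made 1078 calls there, DESeq2 1176 and limma-voom 571.

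The BTG and TOB relatives with the CCR4-NOT and PAN deadenylases had 18 of 19 members tested, and edgeR called 1 of them, in ON against WT. For OFF against ON it called 0 (2 at an unadjusted p under 0.05), and for OFF against WT 0 (also 0 at an unadjusted p under 0.05), as did DESeq2 and limma-voom in both. Pan3, the regulatory subunit of the PAN deadenylase, was lower in ON than in WT (133 against 186 CPM; -0.49 ± 0.14, adjusted p = 0.0440, lost without ON 1, ON 2, WT 1 or WT 2, up to 0.334). Pabpc1, the poly(A)-binding protein gene and the most abundant of the list, stood at 1332 and 1483 CPM in OFF, 1606 and 1636 in ON, and 1337 and 1201 in WT, and was not called.

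Among the E proteins, the partners of ID2 and ID3, 4 of 7 listed E and ID genes were tested. Tcf4, which encodes the E protein E2-2 and is high in plasmacytoid dendritic cells and B cells, stood at 19.9 and 18.7 CPM in OFF, 8.84 and 9.07 CPM in ON, and 5.68 and 4.83 CPM in WT. The 3 groups did not overlap. It was higher in OFF than in ON (1.11 ± 0.17, adjusted p = 0.0225, lost without OFF 1, WT 1 or WT 2, up to 0.0805), higher in OFF than in WT (1.88 ± 0.19, adjusted p = 6.70e-04, kept with each library left out) and higher in ON than in WT (0.77 ± 0.20, adjusted p = 0.0295, lost without ON 2, WT 1 or WT 2, up to 0.231). Tcf3, the gene of E2A, was higher in ON than in WT (162 against 101 CPM; 0.68 ± 0.16, adjusted p = 0.0205, lost without WT 1 or WT 2, up to 0.143). Tcf12, the gene of HEB and the most abundant of them, stood at 166 and 165 CPM in OFF, 144 and 123 in ON, and 139.8 and 138 in WT, and was not called.

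All 12 genes listed as BACH partners or BACH2-repressed genes were tested. Of them 5 were called higher and 1 lower in ON against WT (median 0.69), 5 higher and 0 lower in OFF against WT (median 0.66), and 0 higher and 1 lower in OFF against ON (median 0.026). Prdm1, the gene of BLIMP-1 and a repressed target of BACH2, stood at 11.4 and 18.0 CPM in OFF, 36.1 and 20.9 CPM in ON, and 5.44 and 5.23 CPM in WT. It was higher than in WT in both ON (2.41 ± 0.31, adjusted p = 0.00199) and OFF (1.46 ± 0.33, adjusted p = 0.0321, lost without OFF 2, WT 1 or WT 2, up to 0.195). Irf4, an activation-induced transcription factor, averaged 29.1 CPM in OFF, 31.3 CPM in ON and 7.25 CPM in WT, with both differences from WT called higher and kept with each library left out. Klrg1 and Il1rl1, surface receptors of differentiated T cells, were higher in OFF (7.55 and 6.55 CPM) than in WT (0.442 and 0.415 CPM), calls that were lost without WT 1 or WT 2. Klrg1, at 8.08 and 3.12 CPM in ON, was also higher in ON than in WT (3.64, adjusted p = 0.00907, lost without WT 1 or WT 2). Il1rl1 stood at 2.10 and 0.297 CPM in ON and was not called there against WT. Mafg, a small MAF partner of BACH2, stood at 11.6 and 10.2 CPM in OFF, 24.8 and 19.5 CPM in ON, and 10.3 and 11.5 CPM in WT. It was lower in OFF than in ON (-1.02 ± 0.18, adjusted p = 0.0417, lost without OFF 1, OFF 2, WT 1 or WT 2, up to 0.108) and higher in ON than in WT (1.02 ± 0.18, adjusted p = 0.00763, lost without WT 1 or WT 2, up to 0.0887). Nfe2l2, the gene of NRF2, was lower in ON than in WT (-0.66 ± 0.12, adjusted p = 0.00785, lost without WT 1 or WT 2, up to 0.102). Nfe2l1, the most abundant of the list, stood at 72.3 and 77.5 CPM in OFF, 72.2 and 95.4 in ON, and 72.3 and 71.9 in WT, and was not called.

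Of 9 tested chromatin partners of SATB1, 3 were higher in ON than in WT (9.68% of all tested genes) and 0 lower (5.16%), with a median of 0.30. The 3 were the cohesin genes Rad21 (0.76 ± 0.11, adjusted p = 0.00321, lost without WT 2 at 0.0722) and Smc1a (0.45 ± 0.12, adjusted p = 0.0370, lost without ON 2, WT 1 or WT 2, up to 0.268) and the deacetylase gene Hdac1 (0.58 ± 0.11, adjusted p = 0.0100, lost without WT 1 or WT 2, up to 0.135). Chd4, the most abundant, stood at 829 and 748.5 CPM in OFF, 719 and 981 in ON, and 687 and 697 in WT, and was not called. For OFF against ON edgeR called 0 of the 9 (3 at an unadjusted p under 0.05), DESeq2 2 and limma-voom 0. Over all genes they made 162, 497 and 99 calls there. For OFF against WT edgeR, DESeq2 and limma-voom each called 0 (1 at an unadjusted p under 0.05).

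Among 18 other naive T cell regulators, 2 were called higher and 0 lower for OFF against ON (median 0.22), 2 higher and 6 lower for ON against WT (median -0.33), and 2 higher and 2 lower for OFF against WT (median -0.083). Foxo1, whose protein keeps naive lymphocytes alive and homing, stood at 344 and 348 CPM in OFF, 189.8 and 189.4 CPM in ON, and 317 and 302 CPM in WT. It was higher in OFF than in ON (0.87 ± 0.11, adjusted p = 0.00866), a call that was kept with each library left out, and lower in ON than in WT (-0.71 ± 0.11, adjusted p = 0.00380, lost without WT 1 or WT 2, up to 0.0652). Il7r, the survival cytokine receptor of naive cells, was 2.35-fold lower in ON than in WT and 2.07-fold lower in OFF than in WT, the second call being lost without WT 1 (adjusted p = 0.104). Dapl1 was lower than in WT in both ON (-3.08 ± 0.24) and OFF (-2.05 ± 0.22), calls kept with each library left out, at 10.2 and 10.8 CPM in OFF, 3.68 and 6.54 CPM in ON, and 47.7 and 38.7 CPM in WT. Myb, a transcription factor of progenitors, stood at 168 and 176 CPM in OFF, 111 and 97.0 CPM in ON, and 35.7 and 34.5 CPM in WT. Its calls in OFF and in ON against WT were kept with each library left out, while that of OFF against ON (0.73 ± 0.12, adjusted p = 0.0263) was lost without OFF 1, OFF 2, ON 2, WT 1 or WT 2 (up to 0.0898). Gfi1, a repressor, was higher than in WT in both OFF (1.06 ± 0.25, adjusted p = 0.0382) and ON (1.32, adjusted p = 0.00886). The OFF call was lost without OFF 2, WT 1 or WT 2, and the ON call without WT 1 or WT 2. Ets1, the most abundant of the list, stood at 1582 and 1694 CPM in OFF, 1387 and 1346 in ON, and 1458 and 1309 in WT, and was not called.

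Of 15 effector lineage transcription factors, 11 were called higher and 0 lower for ON against WT (median 1.48), and 9 higher and 0 lower for OFF against WT (median 1.44). Maf stood at 29.1 and 43.0 CPM in OFF, 90.8 and 74.7 CPM in ON, and 11.2 and 10.8 CPM in WT. Runx2 stood at 22.6 and 33.4 CPM in OFF, 21.7 and 14.9 CPM in ON, and 1.68 and 1.80 CPM in WT. The calls of Maf, Runx2 and Eomes against WT were kept with each library left out, in ON and in OFF, as was that of Batf in ON and that of Tox in OFF. For OFF against ON 1 was higher, Bcl6 (1.15 ± 0.18, adjusted p = 0.0263, lost without OFF 2 or WT 2, up to 0.0624), and 1 lower, Maf (-1.20 ± 0.18, adjusted p = 0.0210, lost without OFF 1 or WT 2, up to 0.0579). Hif1a, the most abundant of the list, stood at 143 and 211 CPM in OFF, 246 and 162 in ON, and 119 and 102 in WT, and was higher in ON than in WT (0.89 ± 0.23, adjusted p = 0.0356, lost without ON 1, WT 1 or WT 2, up to 0.211).

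**Figure D5:**
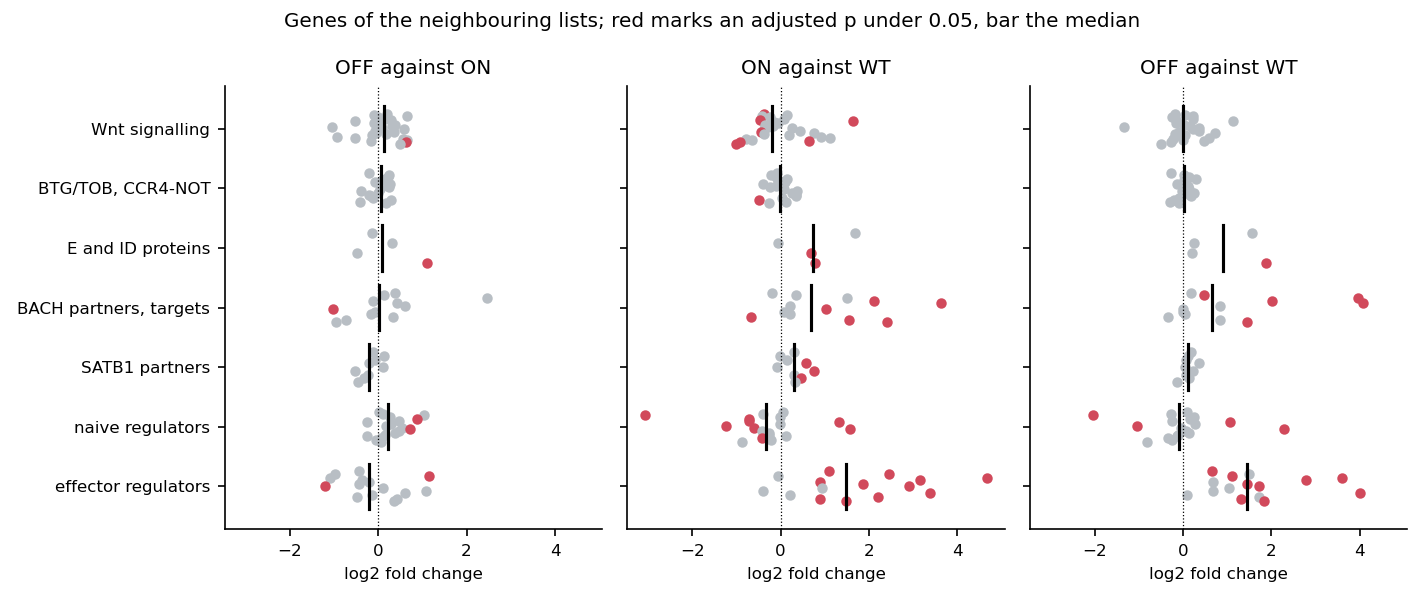
edgeR log2 fold changes (x axis) of the tested genes of 7 neighbouring lists (rows) in each comparison, first group over second, with red for an adjusted p under 0.05 and black bars for list medians. The medians of the effector regulators are -0.20 for OFF against ON, 1.48 for ON against WT and 1.44 for OFF against WT, and every red point of that list against WT lies right of 0.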

How the data were processed

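RNA was read on an Illumina NovaSeq and aligned to GRCm38, per the labels' protocols. R 3.6.2 and edgeR appear in the submitters' processing notes. Neither the aligner and counter nor strand handling or gene annotation are stated in the sources used here. The authors deposited raw counts per gene, with no scaling. The table's 5 summary rows entered neither library sizes nor tests. They held 63.6% and 61.0% of all reads in the table in OFF, 56.8% and 53.1% in ON, and 66.3% and 64.7% in WT. Genes with a count numbered 24210 and 25061 in OFF, 29456 and 28288 in ON, and 33138 and 30592 in WT. Both measures thus differed by group, and their part in the results was not tested. Of 47729 identifiers 47310 were matched to GENCODE M21 (GRCm38). Without known strand handling, reads of genes overlapping on the opposite strand of Lef1, Axin2, Bach2 and Satb1 may be mixed with theirs.

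Genes were kept by filterByExpr (minimum count 10, total 15), scaled by TMM and tested with edgeR 4.0.16 (glmQLFit, robust, current method) under R 4.3.3, with all 6 libraries in 1 fit of group means, and p-values were adjusted by Benjamini-Hochberg. Alternatives used DESeq2 1.42.0 and limma 3.58.1. The steps were tested on simulated counts. Both libraries of every group differed beyond sampling noise (chi-square per degree of freedom 17.8 in OFF, 56.5 in ON and 8.17 in WT). As all 6 libraries are in 1 fit, the spread of the ON libraries enters the tests of OFF against WT too. Named list genes were, per comparison, up to 4 called members of smallest p and the most abundant member. Profile neighbours used log2(CPM + 0.1). The members, lists and motifs were chosen with earlier results of these data known. The level of 1 listed marker gene is not reported here.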

Additional observations from a re-analysis of the deposited data

How the results depend on the processing

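Without a library the counts of called members ran from 0 to 1 between OFF and ON, 1 to 5 between ON and WT and 0 to 3 between OFF and WT; of all genes from 67 to 619, 368 to 2398 and 223 to 1601 (162, 2342 and 1078 with all libraries); and of pathway genes from 1 to 11, 10 to 37 and 9 to 22 (7, 38 and 19). With all libraries, called members numbered 1 between OFF and ON by DESeq2, and between OFF and WT 0 by limma-voom and 3 with only these groups fitted. All genes called between OFF and ON numbered 497 by DESeq2, 99 by limma-voom and 58 both with only these groups and with only protein-coding genes (19 higher, 39 lower), and between OFF and WT 571 by limma-voom; pathway genes between OFF and ON numbered 15 by DESeq2.

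No label says whether replicate numbers pair the samples. Over 15780 genes the deviations of same-numbered libraries correlated at -0.20 between OFF and ON, -0.21 between OFF and WT and 0.077 between ON and WT. These values cannot settle pairing, because each group gives a single difference between its libraries. A replicate block gave 60, 1441 and 663 calls over all genes in the order above, took Satb1 (adjusted p = 0.0539) and Id2 (0.0794) out of the calls between ON and WT and added Id3 (0.0413). A crossed block with the OFF numbers swapped, chosen after seeing the data, gave 1210, 3754 and 2083 calls, among them 5, 5 and 2 members.

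Without low-count filtering, which moved the median of all genes to -0.15 for ON against WT and -0.29 for OFF against WT, small differences turned sign for Tcf7 between ON and WT (0.0075), Axin2 between OFF and ON (0.018) and between OFF and WT Bach2 (0.0044) and Btg2 (0.0083), and with limma-voom for Axin2 between OFF and ON (0.013). With 1 library left out the ranges were -0.074 to 0.025 for Tcf7 between ON and WT, -0.12 to 0.27 for Lef1 and -0.31 to 0.33 for Axin2 between OFF and ON, -0.24 to 0.069 for Bach2 between OFF and WT, -0.29 to 0.026 for Btg1 between ON and WT, -0.042 to 0.35 for Btg2 between OFF and ON, -0.19 to 0.030 for Btg2 between OFF and WT and -1.06 to 0.050 for Id2 between OFF and ON. The call of Id2 between ON and WT was also lost without a filter (adjusted p = 0.191), with the older quasi-likelihood method (0.0506) and with protein-coding genes only (0.0653). The longest transcript as length moved 6 of 10 genes to another rank of level. The cause of these shifts was not tested. Where 1 library of a group is left out, the lone one is assumed to vary like the others. Among the 10 genes, Id2 and Id3 had the largest standard errors.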

Other observations

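Annotated transcripts that overlap exons of the members had values of their own. Gm43352, an antisense gene that shares 1208 bases with Lef1 exons, stood at 14.2 and 15.6 CPM in OFF, 6.29 and 8.23 CPM in ON, and 12.9 and 13.4 CPM in WT. It was higher in OFF than in ON (1.04 ± 0.19 on the log2 scale by edgeR, adjusted p = 0.0442, lost without OFF 1, OFF 2, ON 1, WT 1 or WT 2, up to 0.121) and lower in ON than in WT (-0.86 ± 0.20, adjusted p = 0.0197, lost without ON 1, WT 1 or WT 2, up to 0.163), whereas Lef1 was called in neither. Gm36931, an unclassified transcript on the strand of Satb1 that shares 156 bases with its exons, stood at 94.0 and 66.0 CPM in OFF, 48.8 and 48.5 CPM in ON, and 79.4 and 83.8 CPM in WT, and was lower in ON than in WT (-0.75 ± 0.16, adjusted p = 0.0163, lost without WT 1 or WT 2, up to 0.142). Bach2os, antisense to Bach2, stood at 0.867 and 1.14 CPM in OFF, 0.358 and 0.892 in ON, and 1.26 and 1.40 in WT, and was not called. Gm6934, an unclassified transcript opposite Satb1 that shares 128 bases with its exons, stood at 19.1 and 14.3 CPM in OFF, 12.2 and 12.1 in ON, and 19.6 and 21.3 in WT. It was lower in ON than in WT (-0.75 ± 0.18, adjusted p = 0.0231, lost without ON 1, ON 2, WT 1 or WT 2). Gm11670, antisense to Axin2, stood at no more than 0.359 CPM in any library. With strand use not given, reads from Gm43352, Bach2os, Gm6934 and Gm11670 cannot be told apart from those of the genes they overlap where exons are shared. For Gm36931 this holds in the 156 shared bases whatever the strand use. These genes were chosen after their values were seen.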
